A study of Mus musculus with 4 samples.

Results

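The genes for integrin subunits, laminin chains and type IV collagen chains were examined in *Sst-Cre/tdTomato* cells with and without *Dnmt1*. The set was chosen by gene symbol alone, as all *Itga*, *Itgav* and *Itgb*, *Lama*, *Lamb* and *Lamc*, and *Col4a* genes with a chain number, and it held 38 of the 56883 genes in the table. Integrin subunits made up 21 of them, laminin chains 11 and type IV collagen chains 6. The measurement was total RNA sequencing of tdTomato-positive cells that had been sorted from the basal telencephalon of mouse embryos at embryonic day E14.5, a stage of active interneuron migration. Control cells were *Sst-Cre/tdTomato*, and knockout cells were *Sst-Cre/tdTomato/Dnmt1 loxP2* (*Dnmt1* KO), so that both genotypes carried the *Cre* driver and the reporter. There were 2 libraries per genotype. The labels state that cells of several embryos were pooled and that RNA came from 50000 cells per genotype. By the study's methods, both libraries of a genotype were handled as samples of their own, each made from a pool of embryos. The p-values thus rest on the spread between these pools and not between single embryos. In the main test (limma), each gene's own spread was combined with that of genes of similar level. *Cre* under the control of *Sst* acts in postmitotic somatostatin-expressing (SST+) cells and deletes *Dnmt1* there. DNMT1 is the enzyme that copies DNA methylation after replication, and it has further roles in postmitotic neurons. Throughout, paired values stand for replicates 1 and 2, and control values precede *Dnmt1* KO values.

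Integrins are receptors made of an alpha and a beta subunit that tie the cell surface to the extracellular matrix and, on the inner side, to the actin cytoskeleton. Laminins, trimers of an alpha, a beta and a gamma chain, and the triple helices of type IV collagen are the main networks of basement membranes. In the embryonic brain such membranes lie beneath the pia and around blood vessels, and migrating neurons and radial glia contact them through integrins. Vascular and meningeal cells are known as major producers of the matrix chains, while the receptors are made by many cell types.

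The libraries held 6970247 to 8376711 reads on genes. Values are normalized counts, that is, reads divided by a size factor for each library. For 14323 genes the mean normalized count reached 10 or more, and of these limma called 2476 as differentially expressed at an adjusted p below 0.05, or 17.3%, with 1287 (8.99%) lower and 1189 (8.30%) higher in *Dnmt1* KO cells. The targeted gene, *Dnmt1*, had normalized counts of 2238 and 2341 in control cells, compared with 2164 and 2210 in *Dnmt1* KO cells. For this gene, limma gave a log2 fold change of -0.07 (adjusted p = 0.461), and a count over the whole gene cannot separate transcripts that lack the floxed exons. *Sst*, which marks the sorted cells, was read at 5580 to 8303 normalized counts in the 4 libraries. Fold changes are given on the log2(normalized count + 1) scale, which understates those of low genes.

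More matrix than receptor genes were called, and whether the classes differ was not tested, since genes are not replicates. All 38 genes were read in some library, and 27 passed the filter, of which 14 encode integrin subunits and 13 matrix chains. Among the 13 matrix genes tested, limma called 9 as lower in *Dnmt1* KO cells and 0 as higher (at an unadjusted p below 0.05, 10 lower and 1 higher, *Lama1*, against 2208 and 2115 of all genes tested), and edgeR and DESeq2 likewise called 0 as higher. Among the 14 integrin genes tested, *Itga4* was lower and *Itga8* was higher. Over all genes tested, 8.99% were lower and 8.30% higher. The median log2 fold change was -1.03 over the matrix genes and -0.41 over the integrin genes tested, where all genes tested had a median of -0.0033. Control and *Dnmt1* KO values were fully separate in 11 of the 13 matrix genes and in 10 of the 14 integrin genes, as in 57.4% of all genes tested. *Lamb3* and *Itga2* passed the filter through the control libraries, since their mean in *Dnmt1* KO cells was below 10.

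**Figure D1:**
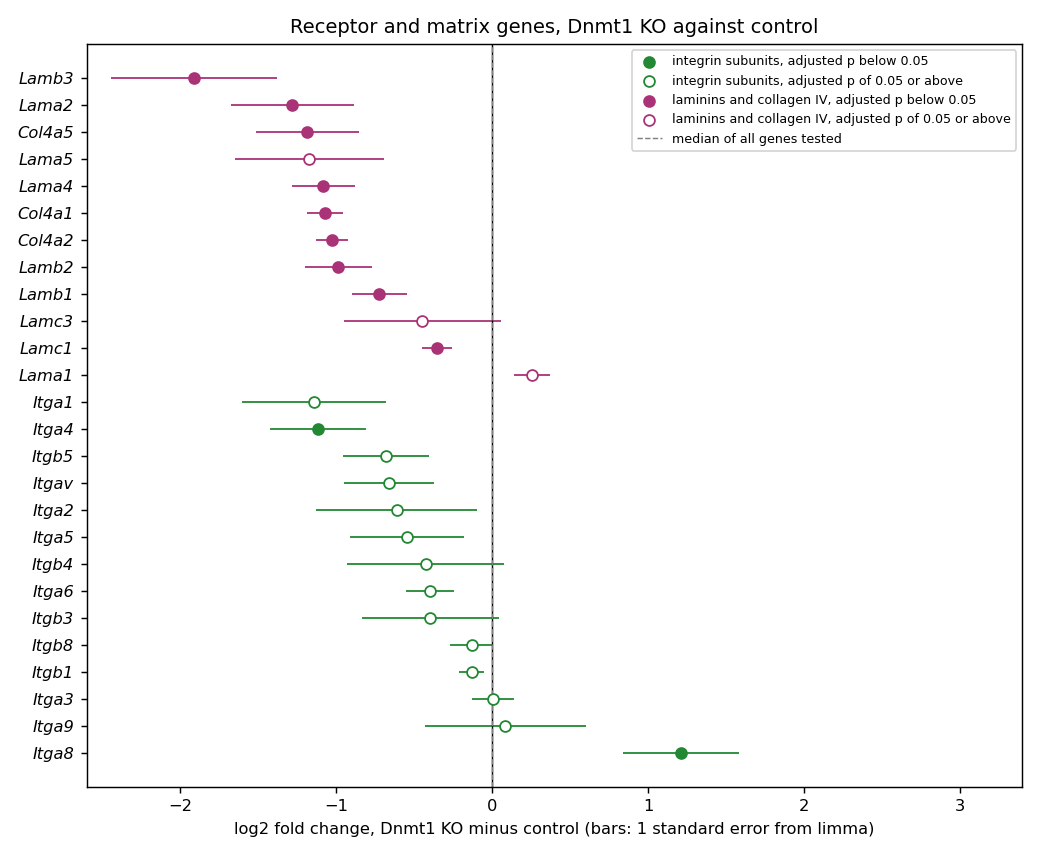
Log2 fold change (*Dnmt1* KO minus control) of integrin and matrix genes tested, with bars of 1 standard error from limma. Filled points mark an adjusted p below 0.05. Among the matrix genes (purple), 11 lie below 0 and 9 are filled, while of the 14 integrin genes (green) only *Itga4* and *Itga8* are filled, on opposite sides of 0.

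Type IV collagen was represented mostly by *Col4a1* and *Col4a2*, whose products form the helix found in nearly all basement membranes. *Col4a1* (ENSMUSG00000031502, GRCm39 chromosome 8 from 11248423 to 11362826) had normalized counts of 693 and 579.9 in control cells, compared with 335 and 271 in *Dnmt1* KO cells. *Col4a2* (ENSMUSG00000031503, chromosome 8 from 11362471 to 11499287) had 489.5 and 535 against 238 and 263. Both *Dnmt1* KO libraries lay far below both control libraries for either gene. The means of *Col4a1* were 636 ± 79.7 (SD, n = 2) and 303 ± 45.5 (SD, n = 2), a log2 fold change of -1.07 (standard error, SE, 0.12, adjusted p = 1.39e-05, limma). Those of *Col4a2* were 512 ± 32.1 (SD, n = 2) and 250.5 ± 18.1 (SD, n = 2), a log2 fold change of -1.03 (SE 0.10, adjusted p = 6.93e-06, limma). Since whole cell pools were sequenced, fewer cells of a type and less RNA per cell cannot be told apart here or for the other genes.

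The pair lies head to head on opposite strands, and their annotated transcripts share 311 exonic bases, 4.17% of those of *Col4a1*. Both genes fell by similar sizes, and the level of *Col4a1* over that of *Col4a2*, each per kb of transcript, was 1.44 and 1.11 in control cells, compared with 1.44 and 1.05 in *Dnmt1* KO cells. The genotypes overlapped in this ratio. *Col4a1* made up 52.7% of the summed type IV collagen level per kb in control cells and 52.5% in *Dnmt1* KO cells.

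The X-linked *Col4a5*, a chain of the type IV collagen networks of kidney, skin and muscle, was read at 38.5 and 55.1 in control cells, compared with 17.8 and 21.9 in *Dnmt1* KO cells. It fell by 1.19 on the log2 scale (SE 0.33, adjusted p = 0.0209, limma). Its neighbour *Col4a6*, which is transcribed away from it on the opposite strand and pairs with *Col4a5* in some basement membranes, had 15.2 and 13.3 against 2.96 and 2.19. Its mean stayed under the filter, and with the filter at a mean of 1 its log2 fold change was -2.10 (adjusted p = 0.0255, limma), whereas with no filter it was not called (adjusted p = 0.0534, limma). *Col4a4* had 4.47 and 9.19 against 7.89 and 5.46, so that the genotypes overlapped. *Col4a3*, its partner in the kidney and lung, held at most 2 reads in a library.

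Among the laminin alpha chains, which carry the main binding sites for cells, 2 of the 4 tested were lower. *Lama4*, the alpha chain best known from the walls of blood vessels, had normalized counts of 107 and 108 in control cells, compared with 48.3 and 52.4 in *Dnmt1* KO cells. The replicates of each genotype lay close together, with means of 108 ± 0.587 (SD, n = 2) and 50.4 ± 2.91 (SD, n = 2). *Lama4* fell by 1.08 on the log2 scale (SE 0.20, adjusted p = 0.00169, limma). *Lama2*, the alpha chain of muscle, peripheral nerve and parts of the brain vasculature, had 45.6 and 25.5 against 13.8 and 13.1. Its control libraries differed from each other more than the *Dnmt1* KO libraries did, and it fell by 1.28 (SE 0.39, adjusted p = 0.0353, limma).

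*Lama1*, the alpha chain of early embryonic and pial basement membranes, stood apart from the other abundant matrix genes. It was read at 229 and 213 in control cells, compared with 263 and 264 in *Dnmt1* KO cells. Both *Dnmt1* KO values exceeded both control values, but the log2 fold change of 0.25 (SE 0.12) did not pass the test (adjusted p = 0.155, limma). *Lama5*, a widespread epithelial and endothelial chain, had 42.1 and 27.6 against 7.89 and 26.2. Its *Dnmt1* KO libraries lay far apart, and the log2 fold change of -1.17 (SE 0.48) did not pass (adjusted p = 0.108, limma). *Lama3*, known from epithelia, was below the filter with 7.16 and 8.17 against 1.97 and 2.19.

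The shares of *Lama1* and *Lama4* among the laminin alpha chains did not overlap between the genotypes. Of the summed alpha chain level per kb of transcript, *Lama1* took 47.3% and 48.6% in control cells, compared with 72.8% and 68.9% in *Dnmt1* KO cells. *Lama4* took 35.0% and 39.0% against 21.1% and 21.6%. The ratio of *Lama1* to *Lama4*, per kb, was 1.35 and 1.25 in control cells and 3.45 and 3.19 in *Dnmt1* KO cells. With 2 libraries per genotype, an exact permutation test of such a value cannot give a p below 0.333, and the ratios are given as a description.

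**Figure D2:**
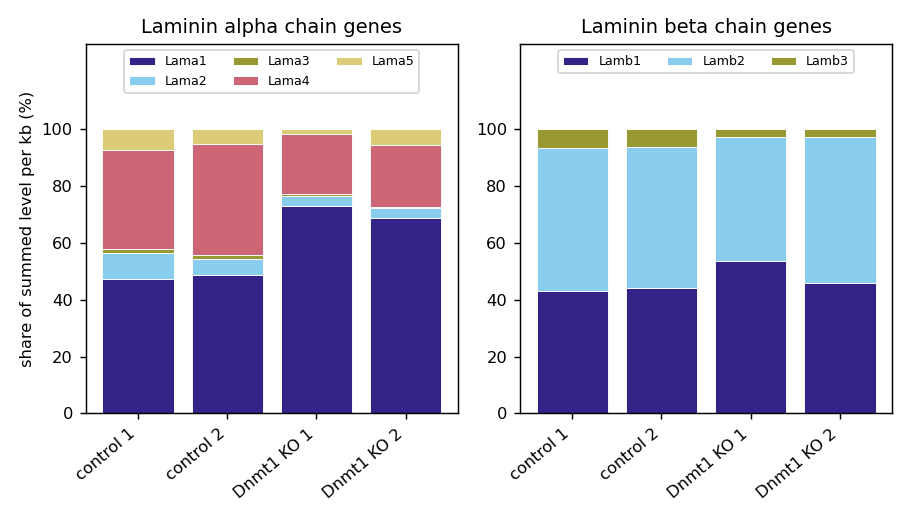
Share of each laminin gene in the summed level per kb of transcript of its chain class (percent), for the alpha and beta chains in the 4 libraries. In the alpha class, the share of *Lama1* was 47.3% and 48.6% in control and 72.8% and 68.9% in *Dnmt1* KO libraries. In the beta class, the share of *Lamb1* was 43.1% and 44.2% against 53.8% and 46.0%, and that of *Lamb2* overlapped between the genotypes. The share of *Lamb3* was 6.68% and 6.37% against 2.83% and 2.81%.

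All 3 laminin beta chain genes were lower in *Dnmt1* KO cells. *Lamb2*, the beta chain of synapses, vessels and the glomerulus, had normalized counts of 170.0 and 144 in control and of 61.2 and 101 in *Dnmt1* KO libraries (log2 fold change -0.99, SE 0.21, adjusted p = 0.00481, limma). *Lamb1*, the most widespread beta chain, had 150.3 and 133 against 77.9 and 92.9 (log2 fold change -0.72, SE 0.18, adjusted p = 0.00955, limma). *Lamb3*, a partner of *Lama3* in epithelia, had 22.4 and 18.4 against 3.95 and 5.46. Its fall of 1.91 (SE 0.53, adjusted p = 0.021, limma) rested on 4 and 5 reads in the *Dnmt1* KO libraries. Of the summed beta chain level per kb, *Lamb1* held 43.1% and 44.2% in control cells, compared with 53.8% and 46.0% in *Dnmt1* KO cells. *Lamb3* held 6.68% and 6.37% against 2.83% and 2.81%. Neither share overlapped between the genotypes, whereas that of *Lamb2* did (50.2% and 49.4% against 43.4% and 51.2%).

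*Lamc1*, the gamma chain of most laminins, had the highest level per kb of the laminin genes in control cells and the smallest change among the called genes. It was read at 405 and 421 in control cells, compared with 318 and 328 in *Dnmt1* KO cells. The means of 413 ± 10.8 (SD, n = 2) and 323 ± 7.19 (SD, n = 2) gave a log2 fold change of -0.35 (SE 0.10, adjusted p = 0.02, limma). *Lamc3* was low, with overlapping genotypes. It had 10.7 and 19.4 against 8.88 and 12.02 (log2 fold change -0.45, adjusted p = 0.602, limma).

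On the receptor side, *Itgb1*, the common beta subunit that pairs with most laminin- and collagen-binding alpha subunits, was not called. Its normalized counts were 634 and 631 in control cells, compared with 564 and 592 in *Dnmt1* KO cells. The ranges were separate, but the log2 fold change of -0.13 (SE 0.08) did not pass the test (adjusted p = 0.305, limma). The laminin-binding alpha subunits were represented by *Itga6* and *Itga3*. *Itga6*, a laminin receptor of radial glia and endothelium, had 187 and 162 against 122 and 142 (log2 fold change -0.40, SE 0.15, adjusted p = 0.0854, limma). *Itga3*, known for its part in the radial migration of cortical neurons, had 177 and 167 against 172 and 174 (log2 fold change 0.0036, SE 0.13, adjusted p = 0.991, limma). *Itga3* thus varied less between the genotypes than between the control libraries.

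The gene called higher was *Itga8* (ENSMUSG00000026768, chromosome 2 from 12110900 to 12307214), an alpha subunit that pairs with *Itgb1* and binds matrix proteins with an RGD motif. It had normalized counts of 17.0 and 12.3 in control cells, compared with 39.5 and 30.6 in *Dnmt1* KO cells. The genotypes did not overlap, with means of 14.6 ± 3.36 (SD, n = 2) and 35.0 ± 6.27 (SD, n = 2). *Itga8* rose by 1.21 on the log2 scale (SE 0.37, adjusted p = 0.0354, limma), on 12 to 40 reads per library. Its share of the summed integrin alpha level per kb was 2.20% and 1.57% in control and 6.16% and 4.67% in *Dnmt1* KO libraries.

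*Itga4* (ENSMUSG00000027009, chromosome 2 from 79085660 to 79163467), which with *Itgb1* forms a receptor for fibronectin and VCAM1, had 58.2 and 43.9 in control and 19.7 and 26.2 in *Dnmt1* KO libraries. It fell by 1.12 (SE 0.31, adjusted p = 0.0213, limma). Of its exonic bases, 20.8% lie opposite exons of *Cerkl*, and how strand was used in counting is not given in the sources used here. *Itga9*, the relative of *Itga4*, had 13.4 and 38.8 against 41.4 and 14.2, so that the replicates differed more than the genotypes (log2 fold change 0.08, adjusted p = 0.938, limma).

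The remaining integrin genes tested did not pass the test. *Itgav*, the alpha subunit of the receptors that release latent TGF-beta, had 53.7 and 87.8 against 34.5 and 53.5 (log2 fold change -0.66, SE 0.29, adjusted p = 0.134, limma). Its partners *Itgb5* and *Itgb8* had log2 fold changes of -0.68 (adjusted p = 0.107, limma) and -0.13 (adjusted p = 0.568, limma). *Itgb8*, which is known to guide vessel growth in the embryonic brain from neuroepithelial cells, had the higher level per kb, with normalized counts of 188 and 212 against 169.7 and 196. *Itga1*, a collagen receptor subunit, had 51.0 and 37.8 against 9.86 and 37.1, and its log2 fold change of -1.14 (SE 0.46, adjusted p = 0.107, limma) rested on the low value in *Dnmt1* KO replicate 1. *Itga5*, *Itga2*, *Itgb3* and *Itgb4* had log2 fold changes from -0.61 to -0.40 with adjusted p-values of 0.349 to 0.624 (limma). Without a multiple test correction, 6 of the 14 integrin and 11 of the 13 matrix genes had a p below 0.05, as had 4323 of the 14323 genes tested (30.2%).

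**Figure D3:**
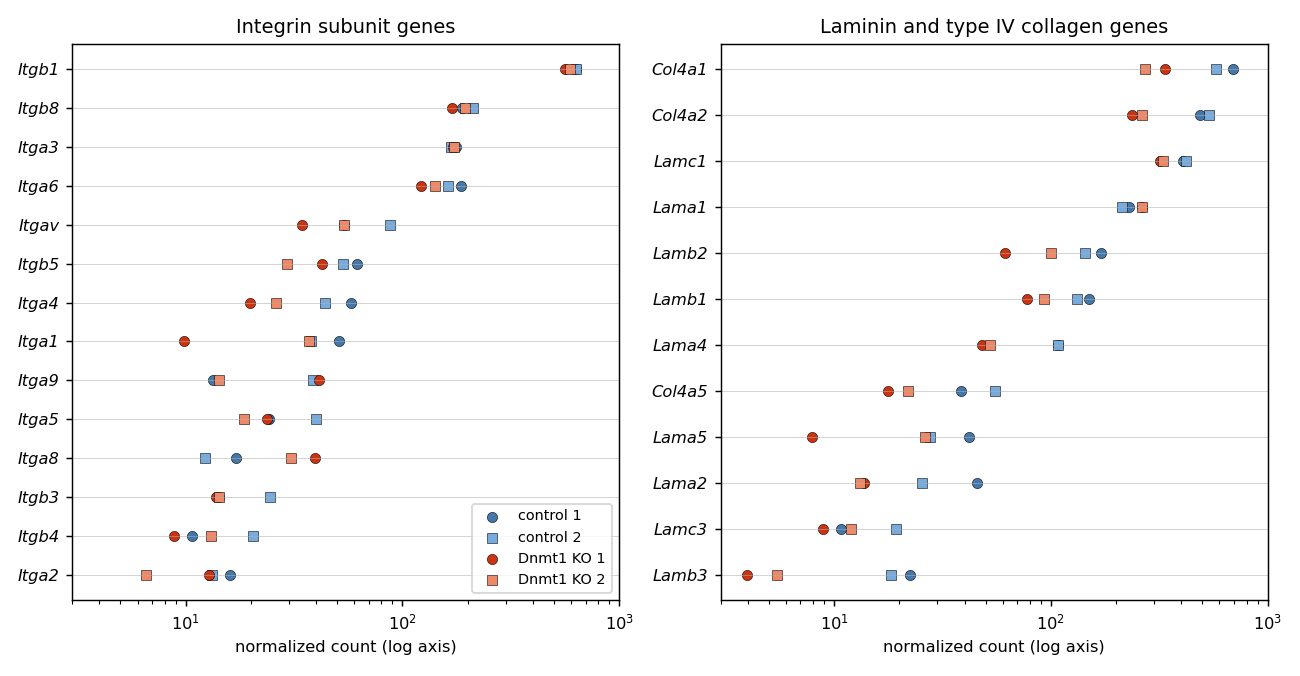
Normalized counts (log axis) of integrin and matrix genes tested in each library, with genes ordered by their mean. For *Itgb1*, *Itgb8* and *Itga3* the 4 points lie close together, whereas *Col4a1*, *Col4a2* and *Lama4* form separate control and *Dnmt1* KO pairs and *Itga8* shows the *Dnmt1* KO pair on the right.

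Low reads left 11 genes untested. Of the 7 integrin genes among them, *Itga11*, a receptor subunit for fibrillar collagen, had 8.05 and 7.15 normalized counts in control and 2.96 and 2.19 in *Dnmt1* KO libraries. *Itga2b*, the platelet alpha subunit, had 6.26 and 6.13 against 12.8 and 8.74. Both pairs were separate, but with the filter at a mean of 1 the adjusted p was 0.248 for *Itga11* and 0.498 for *Itga2b* (limma). *Itga10*, of whose exonic bases 33.5% are shared with *Gm42957* on the same strand, had 6.90 to 9.84 normalized counts. *Itga7* had 2.19 to 7.15 and *Itgb7*, a leukocyte subunit, at most 3.06. *Itgb2*, the common beta subunit of leukocyte integrins, had 8 reads in control replicate 1 and 0 in the other libraries, and *Itgb6*, an epithelial subunit, had 1 read in all. The 4 untested matrix genes were *Col4a3*, *Col4a4*, *Col4a6* and *Lama3*.

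Per kb of transcript, *Itgb1* had the highest level of the set in control cells, with a mean of 126 normalized counts per kb. *Col4a1* followed at 96.2, *Col4a2* at 75.9, *Lamc1* at 52.0 and *Itga6* at 39.6. Next in order were *Itga3* at 34.7, *Lamb2* at 27.9, *Lamb1* at 24.4, *Itgb8* at 23.8, *Lama1* at 23.2, *Lama4* at 17.8 and *Itgb5* at 17.3. Between these neighbours, the ranges over the 4 libraries were separate for *Itgb1* and *Col4a1*, for *Itga3* and *Lamb2* and for *Lama1* and *Lama4*, and overlapped for the others. The remaining genes had a mean of at most 9.57 in control cells. The summed type IV collagen level over the summed integrin beta level, both per kb, was 1.06 and 1.01 in control and 0.602 and 0.544 in *Dnmt1* KO libraries. The laminin level over the integrin beta level was 0.96 and 0.883 against 0.725 and 0.784, and the integrin alpha level over it was 0.648 and 0.649 against 0.627 and 0.618. All 3 ratios were lower in both *Dnmt1* KO libraries than in both control libraries, and that of type IV collagen was separated most.

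Since DNMT1 acts on CpG sites, the 250 bases before the start of each tested gene's canonical transcript were read from GRCm39. For some genes, among them *Lama2*, *Lamb2*, *Lamb3*, *Lama4* and *Itga6*, this start lies inside the annotated gene, and other start sites were not examined. Over 12278 protein-coding genes tested these windows held a median of 13 CpG and 57.2% G and C. At most 3 CpG were found in 8.24% of all windows, in 10.1% of those of genes called lower and in 10.3% of those of genes called higher. Of the 11 called genes of the set, 5 had at most 3 CpG, namely *Lama2* with 1, *Itga8* and *Lamb3* with 2, and *Itga4* and *Lamb2* with 3. Of the 16 that were not called, *Itgav* had 3 CpG and the others more. *Col4a1* had 31 CpG, *Col4a2* 18, *Lamb1* 14, *Lamc1* 12, *Lama4* 9 and *Col4a5* 6, so that called genes spanned CpG-poor and CpG-rich starts. The threshold of 3 CpG was set after these values were seen, no test was made, and methylation was not analysed here. As examples, 4 windows are printed 5′ to 3′ on the strand of the gene. They belong to the gene that rose (*Itga8*, chr2:12307215-12307464, minus strand) and the integrin gene that fell (*Itga4*, chr2:79085410-79085659, plus strand). The others belong to a collagen and a laminin gene that fell (*Col4a5*, chrX:140258104-140258353, plus strand, and *Lamc1*, chr1:153208775-153209024, minus strand). These windows held 2, 3, 6 and 12 CpG, all below the median of 13, so no CpG-rich start is printed. Capitals mark matches to CCAAT, to GGGCGG (GC box) and to TATAAA on either strand, where neighbouring matches can overlap. These letters occur in 36.6%, 50.8% and 6.82% of all windows, respectively.
Itga8: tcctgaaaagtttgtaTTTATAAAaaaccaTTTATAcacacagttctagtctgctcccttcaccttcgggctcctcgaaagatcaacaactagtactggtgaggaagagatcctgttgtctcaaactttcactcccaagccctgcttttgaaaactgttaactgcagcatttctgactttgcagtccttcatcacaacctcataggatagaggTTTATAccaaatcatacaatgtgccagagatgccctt
Itga4: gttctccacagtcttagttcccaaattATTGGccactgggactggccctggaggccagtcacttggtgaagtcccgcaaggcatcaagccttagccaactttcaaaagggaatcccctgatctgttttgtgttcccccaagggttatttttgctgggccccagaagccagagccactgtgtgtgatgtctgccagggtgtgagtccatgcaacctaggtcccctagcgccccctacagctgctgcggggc
Col4a5: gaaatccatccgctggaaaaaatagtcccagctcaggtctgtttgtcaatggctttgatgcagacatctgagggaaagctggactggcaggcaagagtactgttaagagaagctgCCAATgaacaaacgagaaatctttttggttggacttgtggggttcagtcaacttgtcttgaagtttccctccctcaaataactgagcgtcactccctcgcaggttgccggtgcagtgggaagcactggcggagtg
Lamc1: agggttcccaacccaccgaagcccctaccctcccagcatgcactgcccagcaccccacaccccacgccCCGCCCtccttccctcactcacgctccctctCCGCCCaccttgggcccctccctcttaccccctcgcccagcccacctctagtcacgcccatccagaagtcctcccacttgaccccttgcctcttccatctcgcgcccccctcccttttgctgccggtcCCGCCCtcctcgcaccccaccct
*Itga8* held 4 matches to TATAAA and 41.2% G and C, *Lamc1* 3 matches to GGGCGG and 68.8%, and *Itga4* and *Col4a5* 1 match each to CCAAT, with 56.0% and 49.6%. A match describes letters and is no evidence of binding.

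Genes that work beside the set were followed in 7 lists. Of 15 basement membrane and fibrillar partners tested, 6 were lower, with a median log2 fold change of -0.79. *Col18a1*, whose product is a collagen and heparan sulfate proteoglycan of vessel walls, had 227 and 224 normalized counts in control and 57.2 and 75.4 in *Dnmt1* KO libraries (log2 fold change -1.76, adjusted p = 5.63e-06, limma). *Hspg2*, which encodes perlecan, fell by 1.51 (adjusted p = 2.63e-06, limma), and *Sparc*, a chaperone-like binder of type IV collagen, fell by 1.20 (adjusted p = 1.07e-05, limma). *Agrn*, which encodes agrin and had the highest normalized count of the list, was read at 2820 and 2704 against 2594 and 2641 (log2 fold change -0.08, adjusted p = 0.346, limma). Of 11 genes of collagen IV synthesis and crosslinking, 1 passed the test (9.09% called, against 17.3% of all genes tested). *Serpinh1*, the collagen chaperone HSP47, had 574 and 488 against 254 and 246 (log2 fold change -1.08, adjusted p = 5.63e-06, limma).

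Most intracellular partners of integrins were not called, although the share called by limma exceeded that of all genes tested. Of 24 adaptors and kinases tested, 6 were lower and 1 was higher (29.2% called, against 17.3% of all genes tested). Their median log2 fold change was -0.22. *Tns2* (log2 fold change -1.52, adjusted p = 0.0214, limma), *Parva* (log2 fold change -0.79, adjusted p = 0.00457, limma) and *Tns3* (log2 fold change -0.78, adjusted p = 0.00387, limma), which encode links to actin, fell most. *Fyn*, a Src-family kinase of neurons, rose by 0.20 (adjusted p = 0.0266, limma). Of the 7 called, DESeq2 called only *Parva* and *Tns3*. Of 9 non-integrin matrix receptors, 2 were called (22.2%). *Sdc3*, a syndecan of axons, rose by 0.22 (adjusted p = 0.00883, limma) and *Ddr1*, a collagen receptor kinase, fell by 0.47 (adjusted p = 0.00031, limma).

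Matrix-degrading enzymes and their inhibitors were called in both directions, with 3 of 11 higher and 1 lower (36.4% called). *Mmp2*, a secreted gelatinase, had 61.7 and 89.8 normalized counts in control and 135 and 116 in *Dnmt1* KO libraries (log2 fold change 0.74, adjusted p = 0.0212, limma). *Mmp16* rose by 0.51 (adjusted p = 0.00379, limma) and *Mmp24* by 0.44 (adjusted p = 0.000905, limma), both membrane-bound proteases, while the membrane-bound *Mmp14* fell by 0.72 (adjusted p = 0.00357, limma). *Mmp16* was not called after removal of the transcript length and GC trend (adjusted p = 0.399, limma). Of 12 genes that bind or transmit latent TGF-beta, which *Itgav* receptors activate, 2 were called (16.7%), close to the 17.3% of all genes tested. *Tgfb3* rose by 0.67 (adjusted p = 0.016, limma) and *Ltbp4* fell by 0.77 (adjusted p = 0.00582, limma). DESeq2 called neither of them, with adjusted p-values of 0.17 and 0.0741. Of the 7 integrin genes outside the name rule, most of them leukocyte subunits, 0 passed the filter, and their summed normalized count was 8.88 to 17.0 per library.

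Markers of vascular cells moved with the matrix genes. Of 10 endothelial markers tested, 8 were lower, against 8.99% of all genes tested. Their summed normalized count was 626 to 627 in control and 257 to 281 in *Dnmt1* KO libraries. *Kdr*, the receptor for VEGF, had the highest normalized count of them at 129 and 129 against 49.3 and 79.8. Of 6 mural cell markers tested, 4 were lower, with *Notch3* at 257 and 215 against 112 and 117 and a summed count of 535 to 540.5 against 249 to 280.1. Relative to the summed endothelial and mural markers, *Col4a1* stood at 0.594 and 0.499 in control and at 0.624 and 0.511 in *Dnmt1* KO libraries, with overlapping ranges. *Lama4* stood at 0.092 and 0.0931 against 0.0899 and 0.099, and *Col4a2* at 0.419 and 0.46 against 0.442 and 0.497. On the same scale *Lamb1* stood at 0.129 and 0.114 against 0.145 and 0.175, *Lamc1* stood at 0.347 and 0.362 against 0.591 and 0.619, and *Itgb1* at 0.544 and 0.543 against 1.05 and 1.12. *Col4a1*, *Col4a2* and *Lama4* thus kept their ratio to the vascular markers within the spread of the libraries, while *Lamb1*, *Lamc1* and *Itgb1* were higher relative to them in *Dnmt1* KO cells. Ratios were formed only for these genes, without a rule set for their choice, and not for other called genes such as *Lamb2* and *Col4a5*. Ratios to other marker lists were not formed. The log2 ratio of summed counts was -1.06 for type IV collagen, -1.13 for the vascular markers and -1.02 for fibroblast and meningeal markers, so a kept ratio is not particular to vascular markers.

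Other cell type markers moved as well, where 8.99% of all genes tested were lower and 8.30% higher. Fibroblast and meningeal markers (3 of 4 tested lower, with *Col3a1* highest at 109 and 104 against 53.3 and 53.5) summed to 237 to 244 in control and 109 to 129 in *Dnmt1* KO libraries. Microglial and macrophage markers (2 of 4 lower, with *Csf1r* highest) summed to 115 to 131 against 39.5 to 51.4, and erythroid and platelet markers (7 of 7 lower, with *Hba-a2* highest) to 2404 to 2592 against 577 to 592, where *Ppbp* and *Gp9* had 0 reads. Radial glial markers (10 of 12 lower and *Sox2* higher, with *Vim* at the highest count) summed to 12394 to 12581 against 7452 to 7604, and excitatory lineage markers (6 of 8 lower, with *Tbr1* at the highest count) to 2667 to 2751 against 1405 to 1531. Interneuron markers (15 of 16 higher, with *Sst* at the highest count) summed to 27812 to 27972 in control and 42705 to 43173 in *Dnmt1* KO libraries. DESeq2 called fewer markers in several lists, with 3 of the endothelial and 1 of the fibroblast and meningeal markers and neither of the microglial markers called by limma. All libraries came from cells sorted for tdTomato, a gate meant to keep cells with *Cre* activity. The part of these cell types in the levels of the matrix and receptor genes was not tested.

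**Figure D4:**
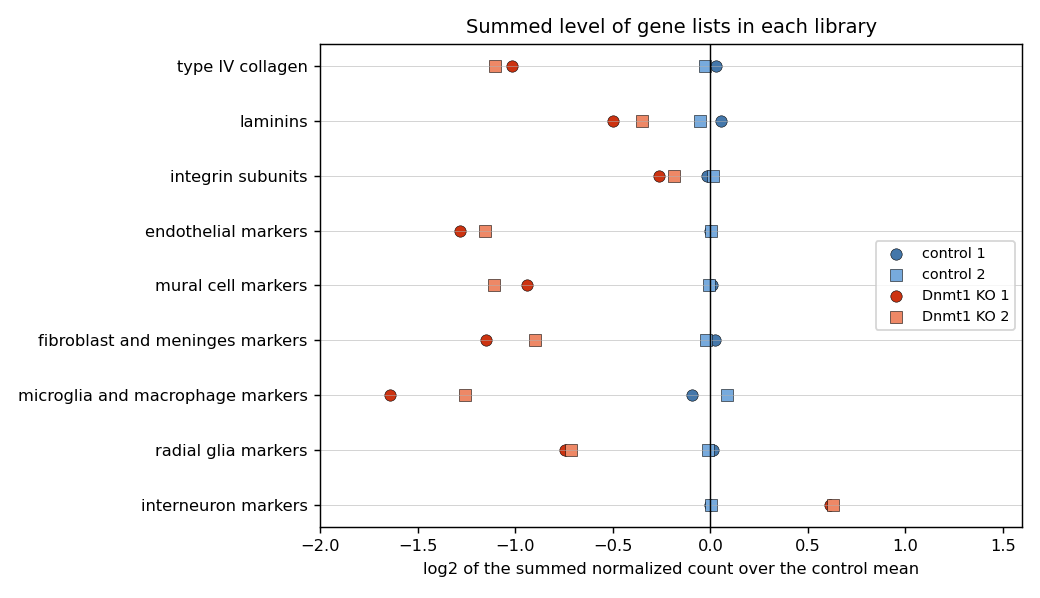
Log2 of the summed normalized count of each gene list in each library, relative to the mean of the control libraries. Type IV collagen genes lie near -1 in both *Dnmt1* KO libraries, as do endothelial, mural, and fibroblast and meninges markers. Laminin and integrin genes lie closer to 0, and interneuron markers lie above 0.

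How firmly the 11 calls held differed between genes. *Col4a1*, *Col4a2* and *Lama4* passed the test whichever of the 4 libraries was left out, with log2 fold changes of -1.22 to -0.92, -1.10 to -0.96 and -1.14 to -1.03. Without control replicate 1, 4 of the 11 were still called, and *Lama2* (adjusted p = 0.303, limma), *Lamb1* (0.0974), *Lamb2* (0.0675) and *Lamb3* (0.123) were among those lost. Without control replicate 2, 6 were still called, and *Col4a5* (adjusted p = 0.212, limma) and *Lamb3* (0.0732) were lost. Among these 4 fits, *Itga4*, *Itga8* and *Lamc1* were called only without *Dnmt1* KO replicate 2, and 8 of the 11 were called without *Dnmt1* KO replicate 1 and all 11 without *Dnmt1* KO replicate 2. The signs of *Itga3*, *Itga9* and *Itgb4*, which were not called, turned when a library was left out. In these fits the log2 fold change of *Itga8* was 0.99 to 1.43 and that of *Lamc1* -0.38 to -0.33. DESeq2's Wald test, which the authors used, called *Col4a1*, *Col4a2*, *Lama4* and *Lamb2* on the recovered reads and gave adjusted p-values of 0.275 for *Itga8*, 0.189 for *Itga4* and 0.195 for *Lamc1*. By edgeR's quasi-likelihood test, 9 matrix and 2 integrin genes were called.

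**Figure D5:**
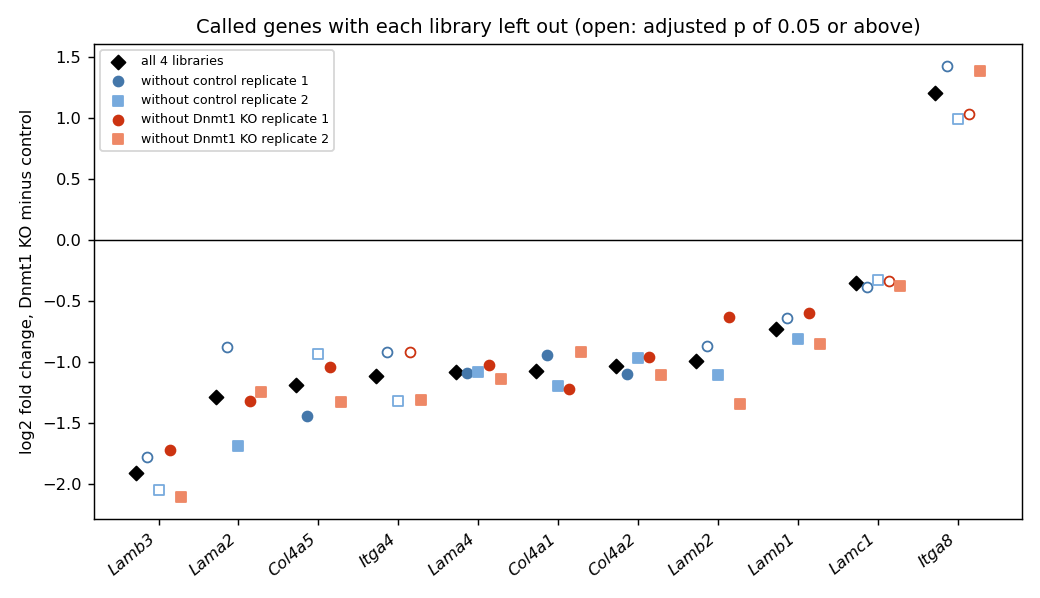
Log2 fold change (*Dnmt1* KO minus control) of the 11 called genes with all 4 libraries (black) and with each library left out (colours). Open symbols mark an adjusted p of 0.05 or above, and *Col4a1*, *Col4a2* and *Lama4* have filled symbols only.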

How the data were processed

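Total RNA sequencing of 2 control and 2 *Dnmt1* KO libraries was analysed, and groups and replicate numbers follow the sample labels. Per the labels and the study's methods, the authors used STAR on GRCm39, then Salmon for gene quantification, and DESeq2 1.32.0 for size factors. The deposited signal is a normalized count, and 89965 of 89965 values above 0 (100.0%) were whole multiples of a library's value for 1 read, within 0.0001 reads. Annotation release and strand setting are not given in the sources used here.

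The test was limma 3.58.1 (R 4.3.3) on log2(normalized count + 1), for genes whose mean reached 10 (variance trend, genotype as the only term, two-sided, Benjamini-Hochberg over 14323 genes, called below 0.05). Recovered reads were tested with edgeR 4.0.16 (2528 genes called) and DESeq2 1.42.0. Positions, transcript lengths (canonical transcript) and exons came from a GENCODE annotation of GRCm39, which held 14285 of the genes tested. Python 3.11.15 with pandas 2.3.3 and matplotlib 3.10.9 was used for tables and figures. The steps were tested on simulated data.

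All genes matching the symbols were named, except that 1 result is not reported here, with *Dnmt1*, the called genes of each partner list with the largest fold changes (at most 3 in each direction), and the most abundant gene of each marker list. *Agrn* and the printed promoter windows were chosen after their values were seen. The members and lists were chosen with earlier results of these data known. Alternatives were other pseudocounts (0.5, 10), filters (1, 50, none), TMM and quantile scaling, no variance trend, edgeR, DESeq2, limma-voom, removal of the transcript length and GC trend (spline, 5 df), a replicate block, and each library left out, where the lone library was assumed to vary like the others. DNA methylation and cortical data were not analysed here.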

Additional observations from a re-analysis of the deposited data

How the results depend on the processing

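The medians of the matrix and integrin genes kept their sign under all 17 alternatives, while the number of calls depended on the variance model and the libraries. Limma without the variance trend called 0 of all genes tested, 0 integrin and 0 matrix genes, where 3339 of all genes had an unadjusted p below 0.05, and DESeq2 called 1160, 0 and 4, with 2 integrin genes at an unadjusted p below 0.05. With the filter at a mean of 50, limma called 0 of the 5 integrin genes left (2 at an unadjusted p below 0.05), and with no filter it called 1 of 21. With each library left out, 1525 to 2205 of all genes, 0 to 4 integrin and 4 to 10 matrix genes were called, and the matrix median was -1.10 to -0.63, the latter without *Dnmt1* KO replicate 1. Without control replicate 1, without control replicate 2 and without *Dnmt1* KO replicate 1, 0, 0 and 1 integrin genes were called, against 4 without *Dnmt1* KO replicate 2 (*Itga1* and *Itgav* beside *Itga4* and *Itga8*). Signs reversed for *Itga3* (-0.0086 with TMM scaling, -0.037 to 0.044 with a library left out, where it was -0.037 without control replicate 2 and -0.0051 without *Dnmt1* KO replicate 2), *Itga9* (-0.65 without control replicate 1, -0.66 without *Dnmt1* KO replicate 1, up to 0.82) and *Itgb4* (-0.86 to 0.0083, the latter without control replicate 2), none of which was called. *Lama2* was not called under quantile scaling. TMM and quantile scaling moved the median of all genes by at most 0.023 on the log2 scale, and removal of the transcript length and GC trend by 0.046, after which 1102 of all genes were called lower and 1485 higher. The cause of these shifts was not tested. With the replicate number as a block, 2957 genes were called over all, with 3 integrin and 10 matrix genes, since *Itga1* and *Lama5* gained a call. Deviations of same-numbered libraries had a correlation of -0.085. This value cannot show whether same-numbered libraries share a batch, and the labels give only a replicate number.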
